A study of Mus musculus with 7 samples.

Results

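The genes described here are 45 genes of DNA replication and S phase, the part of the cell cycle in which the genome is copied. They were found by symbol in a table of RNA sequencing counts with 26608 entries from mouse lymphatic endothelial cells (the lining of lymphatic vessels), and all 45 were present and tested among 13453 genes. The cells came from the ear pinna, as 3 libraries of naive skin and 4 of BPC melanoma. Naive replicates 1 and 3 came from mice labelled BrafCA/+ and pten l/l without Cre. The label of naive replicate 2 names 2 genotypes, that one and Braf+/+, pten l/l with Cre. The tumour mice were BrafCA/+ and pten l/l with Cre, so pten l/l is in all 7 libraries. By label naive replicate 1 pooled both sexes, naive replicate 2 and tumour replicates 3 and 4 were female, and the others were male. The labels do not state the promoter that drives Cre, the sort of the cells or the number of mice in each library. The p-values therefore measure the spread between these libraries, which may be technical in part.

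Replication starts at origins that the origin recognition complex marks. Cdc6 and Cdt1 load the ring of MCM2 to MCM7 there in G1, and Cdc45 and the GINS complex turn that ring into the active helicase. Polymerase alpha with primase starts new strands and polymerases delta and epsilon, held by the sliding clamp PCNA, extend them, while ribonucleotide reductase and thymidylate synthase supply nucleotides. E2F factors, held back by the retinoblastoma family until cyclin-dependent kinases act, switch on many of these genes at the G1/S border. Adult lymphatic endothelium is mostly quiescent and enters the cycle when lymphatic vessels grow.

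Total counts were 52940832 to 63032175 per library. A single gene, Ccdc115, held from 6.68% of them (tumour replicate 4) to 16.5% (tumour replicate 1). The summed CPM (counts per 1000000 of the TMM-scaled library) of 9 lymphatic endothelial markers was 12095 to 14860 in naive and 10470 to 13973 in tumour libraries. In edgeR 0 of the 9 passed the test. At an unadjusted p under 0.05 there was 1, where 16.9% of all tested genes were. DESeq2 called 1, Lyve1, where 11.1% of all genes were called. Other cell types left transcripts too, with every tumour sum above every naive one for fibroblast, myeloid, melanocyte and blood endothelial markers. Keratinocyte and lymphocyte sums overlapped. Summed CPM of 7 fibroblast markers was 601 to 1187 in naive and 1722 to 18144 in tumour libraries, highest in tumour replicate 4. For 8 myeloid markers it was 36.4 to 47.6 and 112 to 390, for 7 melanocyte markers 1.19 to 4.29 and 10.7 to 119, for 4 keratinocyte markers 2.36 to 40.3 and 24.7 to 102, for 6 lymphocyte markers 1.38 to 2.90 and 0 to 3.09, and for 5 blood endothelial markers 542 to 656 and 746 to 923. The macrophage gene Emr1 (Adgre1) was at 0 counts in the 3 naive libraries. Groups did not overlap, tumour higher, for 6 of 7 fibroblast, 5 of 6 tested myeloid and 2 of 5 tested melanocyte markers. Among all tested genes this share was 9.57%. Of 4 tested blood endothelial markers 2 were higher without overlap. Emcn, another of them, lay at 180 to 235 CPM in naive and 72.9 to 132 CPM in tumour libraries. Its tumour values were all lower, as for 8.46% of all tested genes. What part such cells have in the differences below was not tested. In bulk RNA, fewer cells of a kind and less RNA per cell cannot be told apart.

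E2f1, a driver of S phase entry, rose in tumour, and the other 44 genes did not pass the test. E2f1 was the 1 member that passed the test (edgeR's quasi-likelihood test, Benjamini-Hochberg adjustment over all genes, threshold 0.05). Thus 1 of 45 members was higher and 0 were lower, where 0.899% and 0.803% of all tested genes were (1.7% in both directions). At an unadjusted p under 0.05 there were 6 higher members, against 9.1% of all genes, and 1 lower, against 7.83%. DESeq2 called 5 members, all higher, against 6.95% of all genes higher (11.1% in both directions). These were E2f1, Rfc2, Rrm2, Tk1 and Uhrf1. Limma on the deposited log2 values called 3 (E2f1, Rrm2 and Uhrf1), against 1.43% of all genes higher (2.65% in both directions). Limma-voom called Rrm2 alone, against 0.751% (2.04% in both directions), and edgeR with a filter of 5 CPM in 3 libraries called E2f1 and Rrm2, against 1.86% (3.51% in both directions). The median log2 fold change of the members was 0.38, and that of all tested genes 0.04. Of the members, 33 (73.3%) lay above 0, compared with 52.5% of all tested genes. For 10 of the 45 members every tumour CPM lay above every naive one, against 9.57% of all tested genes. For 2 of the 45 every tumour CPM lay below, against 8.46% (18% in both directions).

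**Figure D1:**
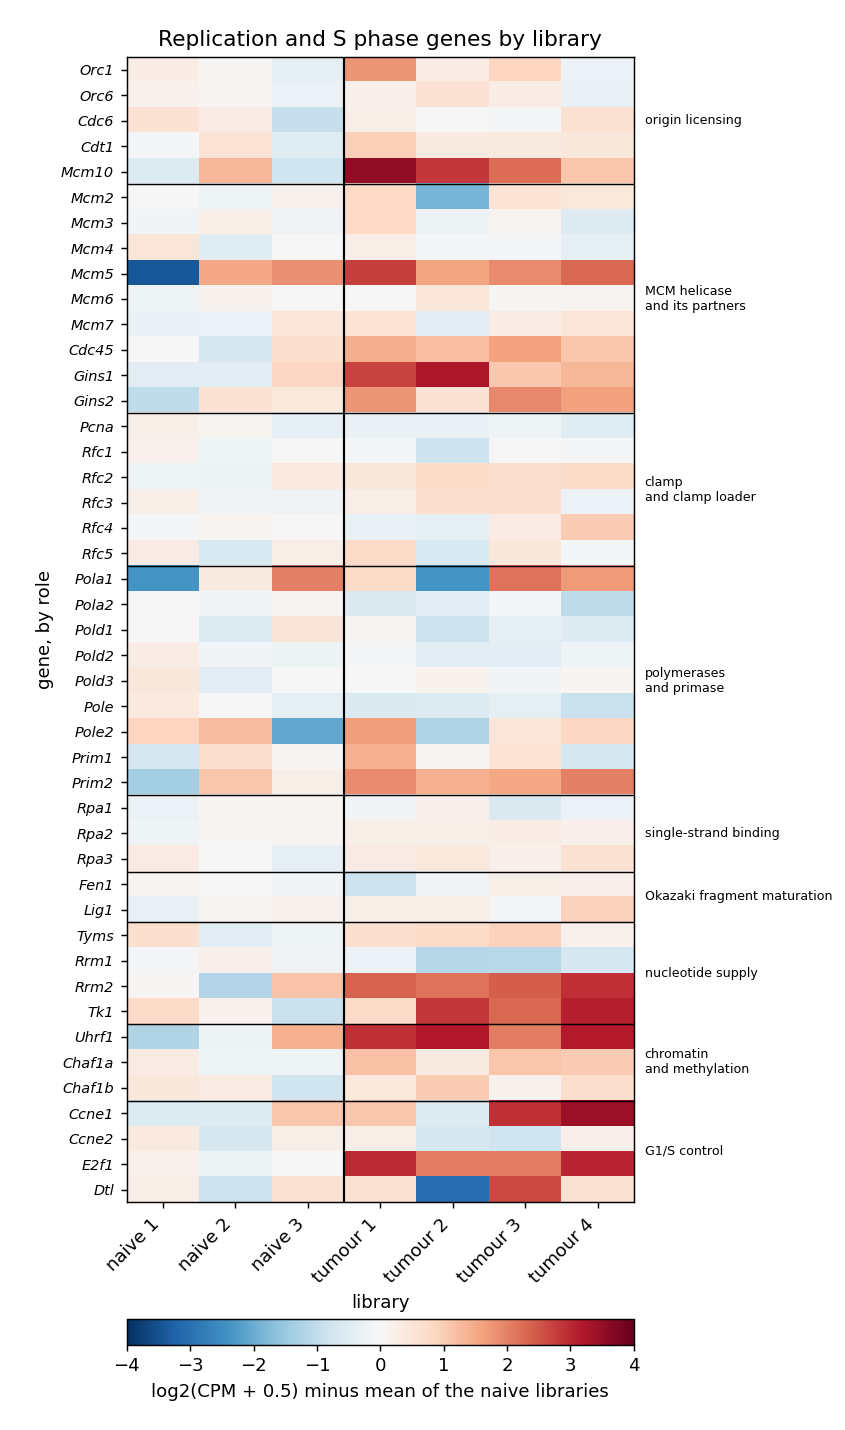
Each row is 1 of the 45 genes, ordered by role, and each column 1 library; colour gives log2(CPM + 0.5) minus the mean of the naive libraries, from -4 (blue) to 4 (red). Rows such as E2f1, Rrm2 and Uhrf1 are red in all 4 tumour columns, most rows of the MCM, clamp and polymerase groups are pale, and single dark blue cells mark libraries with almost no counts, as for Mcm5 in naive replicate 1 and Dtl in tumour replicate 2.

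Summed levels of the groups overlapped, and the members' median lay above the naive mean in each tumour library. The 45 genes summed to 1276, 1194 and 1257 CPM in naive replicates 1, 2 and 3 and to 1463, 1240, 1321 and 1296 CPM in tumour replicates 1, 2, 3 and 4. Naive replicate 1 thus lay above tumour replicate 2. The median difference of the members from their naive mean, on the log2(CPM + 0.5) scale, was 0.01 to 0.02 in the naive libraries and 0.54, 0.20, 0.35 and 0.45 in tumour replicates 1, 2, 3 and 4. The naive libraries set the mean that was subtracted, so their medians are drawn toward 0 and do not show their spread. Over all tested genes the medians lay between 0.01 and 0.04 in tumour. Among the tumour libraries, 16 members were highest in replicate 1, 7 in replicate 2, 12 in replicate 3 and 10 in replicate 4, and tumour replicate 2 held the lowest value for 18 members.

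E2f1 encodes a transcription factor that activates replication genes, and lies on chromosome 2 from 154559407 to 154569892 (positions are those of GENCODE M21 on GRCm38). It had 2.23, 1.6 and 1.97 CPM in naive replicates 1, 2 and 3, from 92 to 130 counts, and 18.6, 9.46, 9.59 and 19.5 CPM in tumour replicates 1, 2, 3 and 4. All tumour values lay above all naive values, and within tumour replicates 1 and 4 were higher than 2 and 3. The means were 1.93 ± 0.319 CPM in naive (SD, n = 3) and 14.3 ± 5.5 CPM in tumour (SD, n = 4), which gave a log2 fold change of 2.88 (SE 0.50, 95% interval 1.74 to 4.02, adjusted p = 0.0321 in edgeR). The call did not hold without naive replicate 1, 2 or 3 (adjusted p = 0.107, 0.108 and 0.12) or without tumour replicate 1 or 4 (0.0707 and 0.0831), nor in limma-voom (0.0888) or with the sex label as a term (0.133), while the direction was the same in all 18 alternatives, with adjusted p from 6.17e-08 to 0.575. On the values the authors deposited on a log2 scale the difference was 1.32. Summed fibroblast markers were at 2772, 1722, 6014 and 18144 CPM and melanocyte markers at 10.7, 67.4, 41.3 and 119 CPM in tumour replicates 1, 2, 3 and 4, and their part in the E2f1 values was not tested.

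A trailing tag in the sample descriptions, whose meaning the labels do not give, is 7 for naive replicates 1 and 2, 8 for naive replicate 3 and tumour replicate 3, and 6 for the other tumour libraries. Only tag 8 holds both groups, with 1 library each. Within it E2f1 differed by a log2 ratio of 2.03 (0.5 CPM added to each value), and the median over the members was 0.34, beside 0.00 over all tested genes and 0.38 for the members in all 7 libraries. Of the 45 members, 34 lay above 0 within tag 8, compared with 6732 of all 13453 tested genes. With the tag as a term edgeR called 0 members and 0 genes at all (2 members and 1169 genes at an unadjusted p under 0.05). Outside tag 8, tag and group cannot be told apart.

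E2F factors bind sites close to the start of many replication genes. RefSeq promoter windows on GRCm38.p6, 250 bases before to 50 after a start, were found for 38 of the 45 members, in 44 windows. They were searched on both strands for the E2F letters TTTCCCGC, TTTCGCGC, TTTGCCGC and TTTGGCGC, and for CCAAT, the letters read by NF-Y. At least 1 E2F match was in 15 of the 44 windows (34.1%), compared with 2.26% of 32851 windows of all genes. CCAAT was in 25 (56.8%), compared with 37.4% of all windows. The stretches shown are the 250 bases before the start for 5 members with a match there, drawn from the origin, helicase and clamp loader groups and from Dtl, and for Rrm2, which had none, 5′ to 3′ on the strand of the gene with E2F matches in capitals.
Mcm5, chr8:75109259-75109508, plus strand: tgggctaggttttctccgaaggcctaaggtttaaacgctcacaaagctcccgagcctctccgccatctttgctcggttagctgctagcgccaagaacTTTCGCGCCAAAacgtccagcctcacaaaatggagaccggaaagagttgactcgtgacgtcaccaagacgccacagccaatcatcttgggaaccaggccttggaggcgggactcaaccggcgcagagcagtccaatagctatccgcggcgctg
Mcm6, chr1:128359706-128359955, minus strand: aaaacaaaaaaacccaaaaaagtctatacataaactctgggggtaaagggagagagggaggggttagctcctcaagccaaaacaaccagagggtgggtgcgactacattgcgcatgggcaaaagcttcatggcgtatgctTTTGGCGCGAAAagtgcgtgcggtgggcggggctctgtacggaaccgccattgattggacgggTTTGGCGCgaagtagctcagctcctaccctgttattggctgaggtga
Orc1, chr4:108579204-108579453, plus strand: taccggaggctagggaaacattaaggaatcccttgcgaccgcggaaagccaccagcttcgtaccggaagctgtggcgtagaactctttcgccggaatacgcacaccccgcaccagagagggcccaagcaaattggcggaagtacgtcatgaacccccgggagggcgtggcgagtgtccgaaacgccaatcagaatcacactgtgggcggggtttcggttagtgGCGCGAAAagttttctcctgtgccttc
Dtl, chr1:191575545-191575794, minus strand: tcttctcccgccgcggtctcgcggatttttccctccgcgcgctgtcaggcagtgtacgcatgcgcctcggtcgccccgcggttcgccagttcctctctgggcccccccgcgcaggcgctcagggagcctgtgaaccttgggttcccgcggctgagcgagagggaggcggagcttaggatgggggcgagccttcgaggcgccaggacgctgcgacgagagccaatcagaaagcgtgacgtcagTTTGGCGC
Rfc3, chr5:151651209-151651458, minus strand: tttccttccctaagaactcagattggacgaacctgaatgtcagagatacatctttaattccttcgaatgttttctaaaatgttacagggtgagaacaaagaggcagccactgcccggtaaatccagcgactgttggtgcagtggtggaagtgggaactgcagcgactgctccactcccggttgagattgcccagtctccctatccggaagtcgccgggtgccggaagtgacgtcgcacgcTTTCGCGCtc
Rrm2, chr12:24708004-24708253, plus strand: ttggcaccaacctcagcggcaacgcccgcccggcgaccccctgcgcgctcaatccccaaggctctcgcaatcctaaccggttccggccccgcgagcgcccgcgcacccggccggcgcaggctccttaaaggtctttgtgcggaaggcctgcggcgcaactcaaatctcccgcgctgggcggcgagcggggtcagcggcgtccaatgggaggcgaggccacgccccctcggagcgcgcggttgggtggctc
The runs of 12 capitals in Mcm5 and Mcm6 hold 2 overlapping matches, on opposite strands. Their first bases lie at -153 and -149 in Mcm5 and at -110 and -106 in Mcm6, counted from the start, and Mcm6 has another at -47. In the printed stretches single matches begin at -27 in Orc1, -10 in Rfc3 and -8 in Dtl. Rfc3 has 2 matches in its searched window, of which 1 is not in the printed stretch.

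By promoter letters, the 15 members with an E2F match had a median log2 fold change of 0.38 (range -0.44 to 2.75), and the 23 without one 0.30 (range -0.76 to 3.24). Mcm6, with 3 matches, differed by 0.17, and Mcm5, with 2, by 1.11 with an SE of 1.22. E2f1 and Rrm2 had no match in their windows, and this says only that these letters are not there. For E2f1 the RefSeq start lies 466 bases inside the gene as GENCODE draws it.

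In nucleotide supply, both subunits of ribonucleotide reductase had groups without overlap, in opposite directions. Rrm2, the small subunit of ribonucleotide reductase whose transcript is known to peak in S phase (chromosome 12, 24708241 to 24714146), had 6.20, 2.36 and 13.7 CPM in naive and 32.9, 28.5, 34.4 and 49.0 CPM in tumour libraries. The groups did not overlap. A log2 fold change of 2.29 (SE 0.55, 95% interval 1.03 to 3.55) came with an adjusted p of 0.0836 in edgeR. It passed in DESeq2, limma-voom, limma on the deposited log2 values and with a filter of 5 CPM in 3 libraries (adjusted p = 0.000661, 0.0382, 0.0298 and 0.0489), and over its 18 alternatives adjusted p reached 0.651, with the tag as a term, where the log2 fold change was 1.33. Rrm1, the large catalytic subunit whose level varies less over the cycle (chromosome 7, 102441695 to 102469771), had 73.9, 87.7 and 68.8 CPM in naive and 64.4, 34.6, 34.9 and 48.0 CPM in tumour libraries. Here all tumour values lay below all naive values, with a log2 fold change of -0.76 (SE 0.25, 95% interval -1.32 to -0.19, adjusted p = 0.17 in edgeR).

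Within a library, Rrm2 had 0.0839, 0.0269 and 0.199 counts per count of Rrm1 in naive replicates 1, 2 and 3. In tumour replicates 1, 2, 3 and 4 it had 0.511, 0.825, 0.983 and 1.02. This ratio needs no scaling between libraries, and it was singled out after the values were seen, so it has no test. Tk1, the S phase thymidine kinase, which was also singled out after its values were seen, had 1.61, 0.868 and 0.173 CPM in naive and 1.64, 8.39, 5.60 and 10.3 CPM in tumour libraries, so that tumour replicate 1 was barely above naive replicate 1. Its log2 fold change was 2.87 (SE 1.08, adjusted p = 0.22 in edgeR). The thymidylate synthase gene Tyms overlapped between the groups, with a log2 fold change of 0.58 (SE 0.32). The table also lists a pseudogene, Tyms-ps, which may share reads with it.

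**Figure D2:**
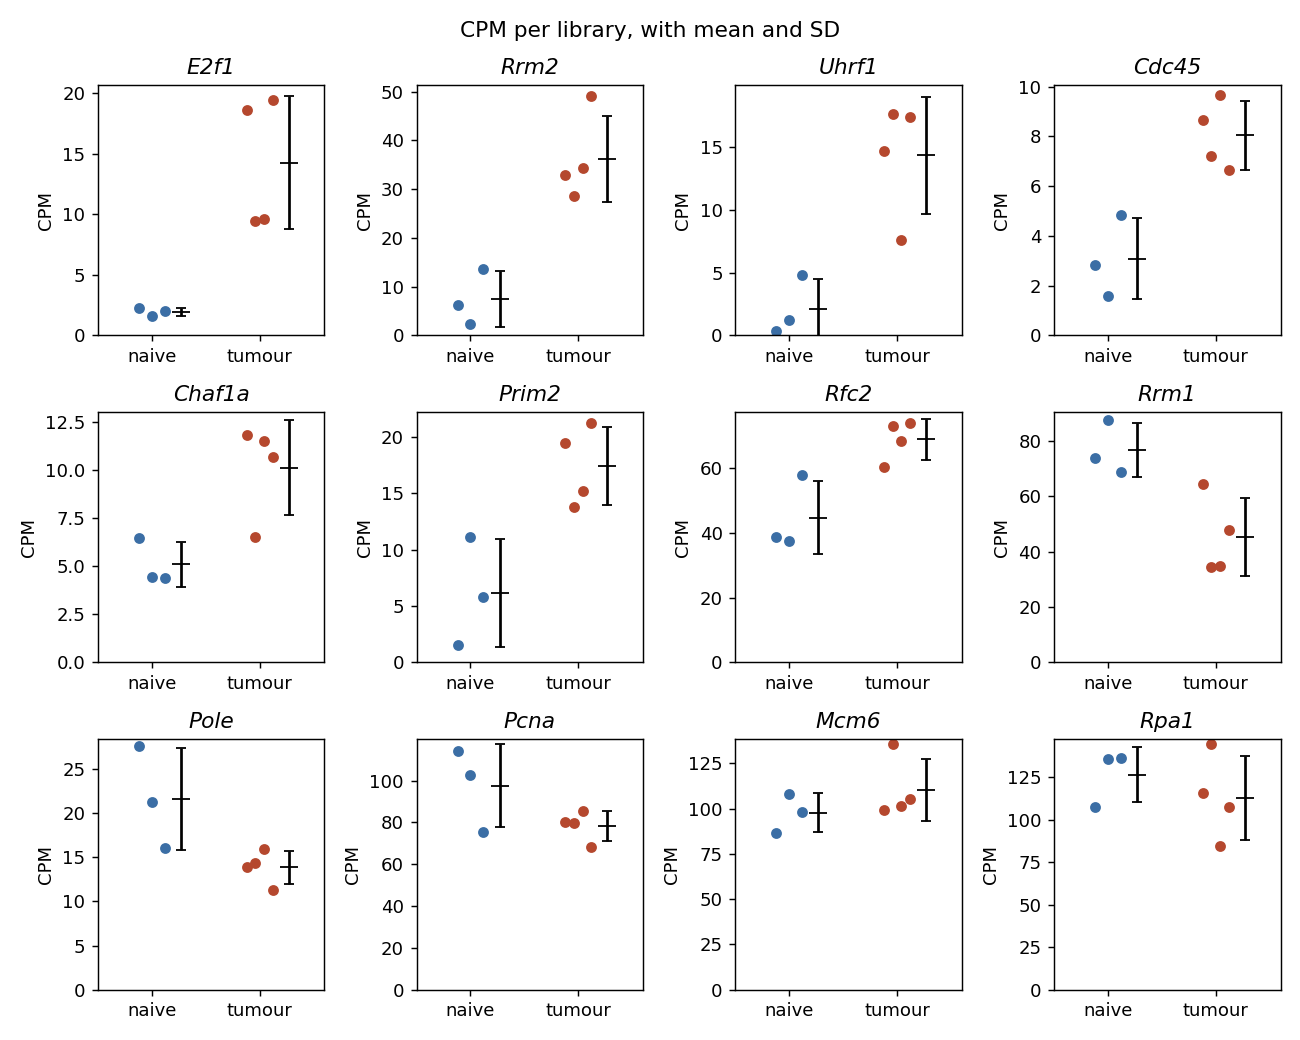
CPM of 12 members, 1 point per library (blue naive, red tumour), with the mean and SD as a bar beside each group; each axis starts at 0, where the lower bar of Uhrf1 in naive is clipped. E2f1, Rrm2, Uhrf1, Cdc45, Chaf1a, Prim2 and Rfc2 have all tumour points above the naive ones, Rrm1 and Pole have them below, and Pcna, Mcm6 and Rpa1 overlap.

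The 3 chromatin genes had higher means in tumour, and 0 of them passed in edgeR. At an unadjusted p under 0.05 there was 1, where 16.9% of all tested genes were. DESeq2 called 1, where 11.1% of all genes were called. Uhrf1, which brings the maintenance methyltransferase to hemimethylated DNA behind the fork (chromosome 17, 56303321 to 56323486), had 0.361, 1.22 and 4.80 CPM in naive and 14.7, 17.6, 7.63 and 17.4 CPM in tumour libraries. The groups did not overlap, but tumour replicate 3 and naive replicate 3, which share tag 8, lay close together, with a log2 ratio of 0.62. Its log2 fold change was 2.75 (SE 0.86, 95% interval 0.80 to 4.70, adjusted p = 0.154 in edgeR), and it passed in DESeq2 and in limma on the deposited values (0.0087 and 0.0346; range over 18 alternatives 0.0087 to 0.902). Without naive replicate 3 the log2 fold change was 4.18, and with the tag as a term 0.67. Chaf1a, the large subunit of the chromatin assembly factor that places histones on new DNA, had 6.46, 4.45 and 4.39 CPM in naive and 11.8, 6.52, 11.5 and 10.6 CPM in tumour libraries. Tumour replicate 2 was only just above naive replicate 1. The log2 fold change was 0.99 (SE 0.46, adjusted p = 0.324 in edgeR). Its exons share 4648 bases with Ubxn6 on the other strand, whose reads these unstranded libraries cannot separate, and Ubxn6 itself differed by -0.30 (log2). The small subunit gene Chaf1b overlapped, at 13.9 ± 5.75 CPM in naive (SD, n = 3) and 20.05 ± 5.17 CPM in tumour (SD, n = 4).

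Of the 5 genes of origin licensing or, for Mcm10, of helicase activation, 0 passed in edgeR (0 at an unadjusted p under 0.05, and 0 in DESeq2). Cdt1, which loads the ring, had 8.16, 12.9 and 6.03 CPM in naive and 17.2, 11.2, 11.1 and 12 CPM in tumour libraries, and the groups overlapped (log2 fold change 0.51, SE 0.40). Orc6, a subunit of the origin recognition complex and the highest of the 5 per length, was at 23.8 ± 3.21 CPM in naive (SD, n = 3) and 27.8 ± 6.74 CPM in tumour (SD, n = 4). Mcm10, a scaffold of helicase activation, had 0.12, 1.75 and 0.0173 CPM in naive libraries, the lowest from 1 count, and 10.01, 5.84, 3.72 and 1.45 CPM in tumour libraries. Naive replicate 2 lay above tumour replicate 4, and the log2 fold change of 3.06 had an SE of 1.55 (adjusted p = 0.375 in edgeR). It was 6.21 without naive replicate 2, 7.59 with the tag as a term and 0.80 on the deposited log2 values. Orc1 and Cdc6 also overlapped, with log2 fold changes of 1.05 (SE 1.05) and 0.11 (SE 0.69).

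In the MCM2 to MCM7 ring 0 genes passed, in edgeR or DESeq2, and 0 were at an unadjusted p under 0.05. The log2 fold changes of its 6 genes ran from -0.10 to 1.11 with a median of 0.20, and adjusted p from 0.685 to 0.904. Mcm6 (chromosome 1, 128331590 to 128359664) had 86.7, 108 and 98.4 CPM in naive and 99.0, 136, 101 and 105 CPM in tumour libraries, so that the groups overlapped with tumour replicate 2 highest. Its log2 fold change of 0.17 had a 95% interval of -0.20 to 0.55. Mcm3, Mcm4 and Mcm7 had 95% intervals of -0.57 to 0.82, -0.68 to 0.49 and -0.47 to 0.93. Each interval takes in differences in both directions. Mcm2 was at 17.8 to 22.3 CPM in the naive libraries and at 26.8 to 34.7 CPM in tumour replicates 1, 3 and 4, but at 5.07 CPM in tumour replicate 2.

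The partners that activate the ring had higher means in tumour without passing the test. Cdc45 had 2.83, 1.58 and 4.84 CPM in naive and 8.67, 7.20, 9.66 and 6.63 CPM in tumour libraries. The groups did not overlap, with a log2 fold change of 1.38 (SE 0.61, 95% interval -0.01 to 2.77, adjusted p = 0.299 in edgeR). The GINS subunit gene Gins2 had 1.03, 4.13 and 3.63 CPM in naive and 9.91, 4.11, 11.3 and 9.14 CPM in tumour libraries, overlapping through naive replicate 2 and tumour replicate 2 (log2 fold change 1.55, SE 0.70). Gins2 shares 2758 exon bases with Gse1 on the other strand, which differed by -0.72. For Gins1 the counts were 0, 0 and 40 in naive and 235, 355, 57 and 71 in tumour libraries, and its fitted log2 fold change of 3.67 had an SE of 2.15.

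Among clamp and polymerase genes 0 passed in edgeR. At an unadjusted p under 0.05 there were 2, where 16.9% of all tested genes were. DESeq2 called Rfc2, where 11.1% of all genes were called. Pcna, the sliding clamp (chromosome 2, 132249162 to 132253314), had 114, 103 and 75.5 CPM in naive and 80.3, 79.7, 85.3 and 68.3 CPM in tumour libraries. The groups overlapped, and the log2 fold change of -0.31 had a 95% interval of -0.72 to 0.09. With the tag as a term its sign turned, to 0.18. Rfc2, a subunit of the clamp loader, had 38.7, 37.7 and 57.9 CPM in naive and 60.2, 73.1, 68.4 and 74.1 CPM in tumour libraries, without overlap. Its difference on the log2 scale was 0.62 (SE 0.21, adjusted p = 0.171 in edgeR, and 0.0426 in DESeq2 as the lowest of 18 alternatives, the highest being 0.879), and 0.24 with the tag as a term. The exons of Rfc2 share 952 bases with Lat2, an adaptor gene of blood cells on the other strand, which was at 3.14 ± 2.35 CPM in naive (SD, n = 3) and 5.44 ± 4.51 CPM in tumour (SD, n = 4). The other loader subunits Rfc1, Rfc3, Rfc4 and Rfc5 overlapped.

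Polymerase epsilon's catalytic gene Pole had 27.6, 21.3 and 16 CPM in naive and 13.9, 14.3, 15.9 and 11.3 CPM in tumour libraries. All tumour values were below the naive ones, although naive replicate 3 and tumour replicate 3 were almost equal, and the log2 fold change was -0.64 (SE 0.30, adjusted p = 0.318 in edgeR). Within tag 8 it was -0.01. Polymerase delta's subunit Pold2 was at 77.2 ± 14.8 CPM in naive (SD, n = 3) and 63.05 ± 7.93 CPM in tumour (SD, n = 4), and Pold1, Pold3 and the alpha subunit Pola2 had log2 fold changes of -0.44, -0.01 and -0.49 with overlap. Prim2, the large subunit of primase, had 1.58, 11.1 and 5.83 CPM in naive and 19.5, 13.8, 15.2 and 21.2 CPM in tumour libraries, without overlap and with tumour higher (log2 fold change 1.5, SE 0.60, adjusted p = 0.252 in edgeR, and 2.23 without naive replicate 2). Prim1, the catalytic subunit, overlapped (0.48, SE 0.65).

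Of the single-strand binding and Okazaki fragment genes 0 passed, in edgeR or DESeq2, and 0 were at an unadjusted p under 0.05. Rpa2, a subunit of replication protein A, had 27.2, 31.5 and 32.6 CPM in naive and 35.5, 35.4, 37.6 and 35.0 CPM in tumour libraries, a narrow set of values without overlap whose log2 fold change was 0.24 (SE 0.19, adjusted p = 0.614 in edgeR). Rpa1 and Rpa3, the other subunits of the same trimer, were at 127 ± 16.2 and 12.3 ± 2.93 CPM in naive (SD, n = 3) and 113 ± 24.7 and 16 ± 1.99 CPM in tumour (SD, n = 4), overlapping. The flap nuclease gene Fen1 and the ligase gene Lig1 overlapped too, with log2 fold changes of -0.08 (SE 0.28) and 0.38 (SE 0.35). With the tag as a term these signs turned, to 0.33 and -0.26, and for Fen1 also without tumour replicate 1, to 0.11. Fen1 shares 1909 exon bases with Gm10143 on the other strand.

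Cyclin E partners CDK2 at G1/S. Its gene Ccne1 had 0, 1 and 60 counts in naive and 63, 0, 315 and 437 counts in tumour libraries, with tumour replicate 2 at 0, where a count of 0 allows up to 0.0521 CPM at most (3 counts). Its log2 fold change of 3.24 had an SE of 2.44, and was 8.27 without naive replicate 3, 1.01 with the sex label as a term and 0.84 on the deposited log2 values. Ccne2, the other cyclin E gene, was at 7.18 ± 2.65 CPM in naive (SD, n = 3) and 6.07 ± 2.42 CPM in tumour (SD, n = 4). Dtl, which guides Cdt1 to degradation during S phase, had 2 counts in tumour replicate 2 and 1686 in tumour replicate 3, and 111 to 373 in the other 5 libraries.

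Such near absence in single libraries was also seen in other members. For 6 of 45, namely Mcm10, Mcm5, Gins1, Pola1, Ccne1 and Dtl, at least 1 library had 3 counts or fewer while another had at least 100. This was 13.3% of the members and 15.4% of all tested genes, so the members are not set apart by it. Mcm5 had 1 count in naive replicate 1 and 879 to 2202 in the other 6 libraries. Pola1, the catalytic subunit of polymerase alpha, had 0 counts in naive replicate 1 and tumour replicate 2 and 167 to 717 elsewhere. The choice of these cases came after seeing the values. The SE was 1.22 for Mcm5 and 1.95 for Pola1, against a median of 0.39 over the members.

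Levels per length set the members in order. Divided by the length of the principal transcript in kb, mean CPM over the 7 libraries was highest for Pcna, Pold2, Mcm6, Mcm3 and Rpa1, and lowest for Mcm10, Orc1, Pola1, Ccne1 and Chaf1a. Pcna had 64.2 CPM per kb in naive and 51.6 in tumour, and E2f1 had 0.708 and 5.23. Rrm1 and Rrm2 stood at 19.2 and 3.38 CPM per kb in naive and at 11.4 and 16.5 in tumour, so their order turned, with a scatter between libraries that the CPM above show.

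By level, in the 15 members with the lowest mean CPM (1.79 to 8.99) the median log2 fold change was 1.21 and the median SE 1.05. In the middle 15 (9.10 to 33.5 CPM) these were 0.38 and 0.39. In the highest 15 (34.5 to 119 CPM) they were -0.10 and 0.25. All tested genes in the same ranges of CPM had medians of 0.36, 0.06 and -0.05, which fall with level too. Above 0 were 14, 14 and 5 of the 15 members, or 93.3%, 93.3% and 33.3%, and 64.1%, 54.2% and 44.9% of all tested genes in the ranges. E2f1 belongs to the lowest class and Rrm2 to the middle one.

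**Figure D3:**
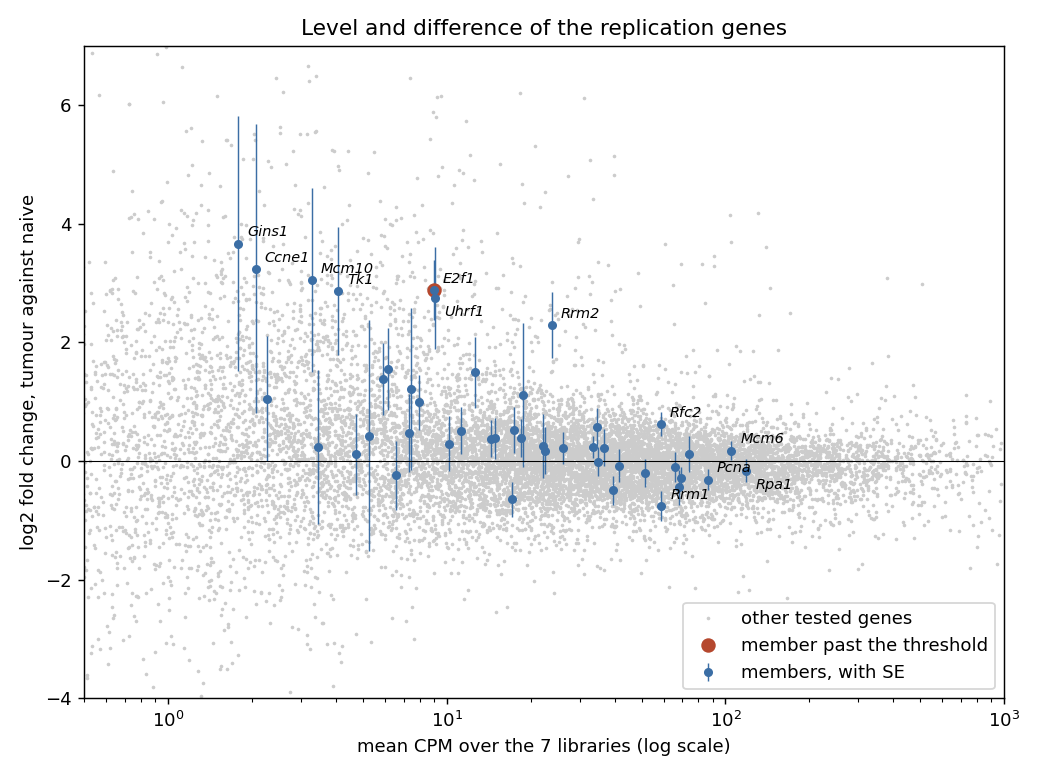
Log2 fold change of tumour against naive (vertical) by mean CPM over the 7 libraries (horizontal, log scale); grey points are the other tested genes within the axes, blue points the 45 members with SE bars, and the red point E2f1, the member past the threshold. Members under 9 CPM scatter upward with long bars, and those above 34.5 CPM lie between -0.76 and 0.62.

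Of 28 further replication genes tested, such as other subunits of the origin complex and fork proteins, 0 passed in edgeR (3 at an unadjusted p under 0.05, where 16.9% of all tested genes were, and 1 in DESeq2, where 11.1% were) and the median log2 fold change was 0.03. Gmnn, the inhibitor of Cdt1, had 2.87, 0.99 and 0.691 CPM in naive and 9.38, 9.18, 5.75 and 3.46 CPM in tumour libraries, without overlap, and passed in DESeq2 (adjusted p = 0.026, beside 0.228 in edgeR and up to 0.632 over 18 alternatives). Atad5, which unloads the clamp, and Donson, a replisome gene, had log2 fold changes of -1.69 (SE 0.63) and -0.87 (SE 0.35) with overlap. Of 37 further E2F and S phase genes 0 passed in edgeR. There were 7 at an unadjusted p under 0.05, where 16.9% of all tested genes were, and 4 in DESeq2, where 11.1% were. These shares are near those of all genes. The median log2 fold change of these 37 genes was 0.30, but within tag 8 their median was -0.10. For the 28 further replication genes the median within tag 8 was 0.05. Cyclin A2 (Ccna2), which acts in S and G2 phase, had 1.53, 3.13 and 2.19 CPM in naive and 13.4, 18.4, 4.74 and 16.3 CPM in tumour libraries (log2 fold change 2.53, SE 0.61, adjusted p = 0.0801 in edgeR, 0.00045 in DESeq2 and up to 0.746 over 18 alternatives). Tfdp1, the partner of E2F factors in DNA binding, had 44.3 to 48.7 CPM in naive and 65.5 to 77.4 CPM in tumour (0.61, SE 0.16, adjusted p = 0.0935), and the histone chaperone gene Asf1b had 2.22 to 8.35 and 14.7 to 17.2 CPM (1.65, SE 0.48, adjusted p = 0.136).

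All 26 genes of a G2/M list had a log2 fold change above 0, where 52.5% of all tested genes did. Their median was 1.95, against 0.38 for the replication members. In edgeR 3 of them, 11.5%, rose (against 0.899% of all tested genes), namely Mki67, Ccnb2 and Kif20a. At an unadjusted p under 0.05 there were 12, where 9.1% of all tested genes were higher, and DESeq2 called 10 higher, where 6.95% were. Mki67 and Ccnb2 passed in 12 of 18 alternatives and Kif20a in 9. Without naive replicate 1, 2 or 3 their adjusted p in edgeR was 0.0507 to 0.107, and for Kif20a it was 0.0528 to 0.0604 without tumour replicate 1, 2 or 4. The lists were compared by these values alone. They were chosen with earlier results of these data known, so the shares called are no test of them. They also lay at unlike levels, with naive means of up to 21.5 CPM among mitotic genes and 127 CPM among members. Fold changes fell with level among all tested genes too. Summed CPM of the mitotic genes was 84.0, 162 and 150 in naive replicates 1, 2 and 3 and 421, 660, 296 and 529 in tumour replicates 1, 2, 3 and 4, so tumour replicate 2, where 18 replication members had their lowest tumour value, had the highest mitotic sum. Within tag 8 the median of the mitotic list was 0.86. Aurka, Ncapg, Bub1b, Hmmr and Kif23 lay below 0 there, at -2.51, -2.29, -1.44, -0.92 and -0.04, and the others above 0. In naive replicate 1 Ccnb1, Bub1, Aurkb, Kif11, Cenpe and Ube2c had 0 counts. Their log2 fold changes had an SE of 1.29 to 1.53.

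**Figure D4:**
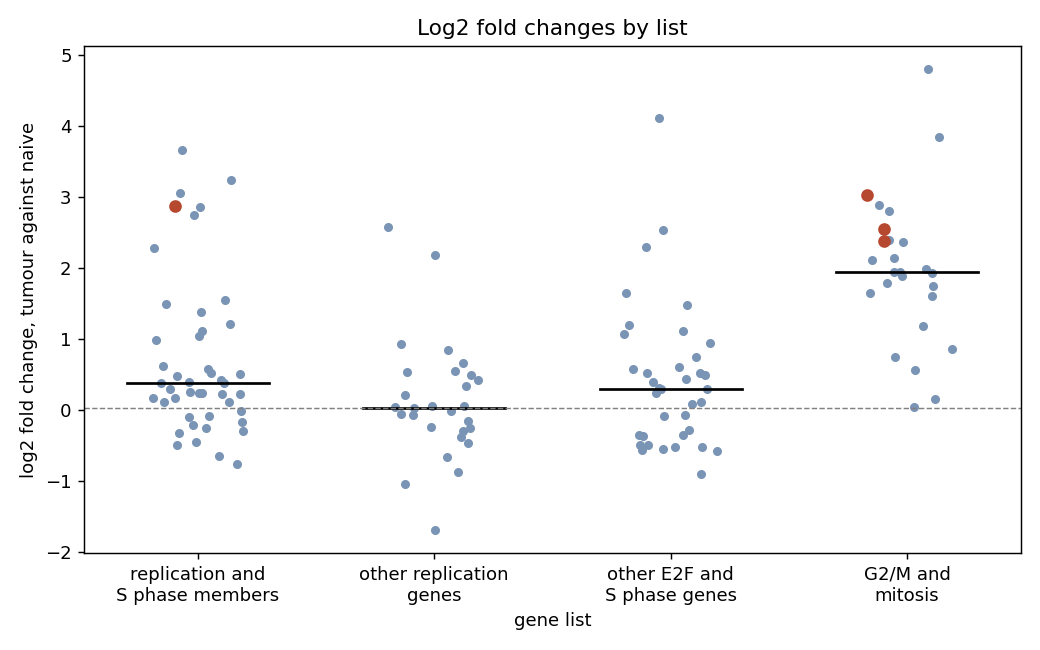
Log2 fold change of tumour against naive for each tested gene of 4 lists, with the list median as a black line, the median of all tested genes (0.04) as a dashed line and genes past the threshold in red. The medians are 0.38 for the 45 members, 0.03 for other replication genes, 0.30 for other E2F and S phase genes and 1.95 for the mitotic genes.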

How the data were processed

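Per the labels' protocols, RNA came from a Qiagen RNeasy Micro kit, and sequencing libraries from a SMART-Seq v4 kit for low input (Takara), which amplifies cDNA and does not mark strand. Per the submitters' processing notes, Trimmomatic 0.38 and mm10 were used; for aligner, counter and annotation the labels name nothing. The authors deposited whole-number counts for each gene, and also normalized values on a log2 scale by a method that the labels do not state; both scales were read from the values. Of 26608 entries, 25 symbols had become dates and, with 0.174% to 0.236% of counts, were left out.

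The counts went into edgeR 4.0.16 under R 4.3.3: filterByExpr (13453 genes kept), TMM factors (0.924 to 1.13), robust glmQLFit and glmQLFTest, Benjamini-Hochberg adjustment and a threshold of 0.05. SE is the log2 fold change divided by the root of F, and 95% intervals use the fitted degrees of freedom. DESeq2 1.42.0 and limma 3.58.1 served as alternatives. Floors of 3 counts correspond to 0.0479 to 0.0521 CPM; they cover counting error only, since amplified reads without molecular identifiers are not independent molecules. Lists of other genes and cell type markers were matched by symbol (Ticrr was not matched; Emr1 and Mlf1ip are older symbols of Adgre1 and Cenpu). Members and lists were chosen with earlier results of these data known. Members described in full were those past the threshold and, per role, the 2 with the smallest p and the best expressed; others are named where stated or by fold change. Overlap of exons on opposite strands, by GENCODE M21, touched 14 members.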

Additional observations from a re-analysis of the deposited data

Results flagged for a closer look

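In a group of 4 libraries a value is listed here when its gap to the nearest other value, as a share of the whole range, exceeds Dixon's 95% critical value. The 45 members were screened in the tumour group, and chance alone lists about 1 group in 20. There were 3 such values. Cdt1, the licensing factor, was at 17.2 CPM in tumour replicate 1, above 11.1 to 12 CPM in the others (share 0.86). Mcm6 was at 136 CPM in tumour replicate 2, above 99.0 to 105 CPM in the others (share 0.833). Rfc1, the large clamp loader subunit, was at 30.7 CPM in tumour replicate 2, below 52.9 to 55.8 CPM in the others (share 0.883).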

How the results depend on the processing

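The main fit called 229 genes, of them 121 higher and 108 lower, and 1 member. Upper-quartile factors gave 156 higher and 92 lower genes, limma-voom 101 and 173, and a fit without Ccdc115 122 and 103. DESeq2 called 1519 genes and 5 members (E2f1, Rfc2, Rrm2, Tk1 and Uhrf1), the filter of 5 CPM in 3 libraries 359 and 2, and limma on the deposited log2 values 356 and 3. The tag number as a term gave 0 genes and 0 members, and the sex label as a term 12 and 0. At an unadjusted p under 0.05 the sex label gave 7 of 45 members and 1897 of 13453 genes. The replicate block gave 3 genes and 0 members (1562 of 13453 genes and 6 of 45 members at an unadjusted p under 0.05). Same-numbered libraries did not deviate together (correlations of -0.0367 to -0.00641), so the numbers are not taken as a pairing. Leaving out 1 library gave 7 to 171 genes and 0 to 1 member, with 7, 33 and 25 genes without naive replicates 1, 2 and 3, and 127 and 102 without tumour replicates 3 and 4. The members' median was 0.28 to 0.45 in 15 alternatives, 0.28 to 0.43 when a library was left out, and 0.25 in limma-voom, 0.18 on the deposited values and 0.25 with the replicate block. Signs turned for Fen1 (0.33 with the tag number, and -0.20 to 0.11 as tumour replicates were left out, positive without tumour replicate 1), Lig1 (-0.26), Pcna (0.18) and Donson (0.057), the last 3 with the tag number as a term. The cause of these shifts was not tested. Among 412 refits of the 23 named members, 392 kept direction and side of the threshold. All of these members except E2f1 had not passed in the main fit, and not passing again counted as kept. E2f1 itself passed in 9 of its 18 alternatives. The common biological coefficient of variation was 0.749.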

Other observations

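Genes around E2F1 in the G1/S switch were picked with the values in view. E2f2, another activating E2F gene, had 1.67, 7.23 and 4.80 CPM in naive and 13.4, 10.3, 11.5 and 15.9 CPM in tumour libraries, without overlap (log2 fold change 1.48, SE 0.55, adjusted p = 0.215 in edgeR). The repressive E2f4 lay at 76.2 to 101 CPM in naive and 85.4 to 120 CPM in tumour libraries, with overlap (0.11, SE 0.18). Of the retinoblastoma family, Rbl1 differed by 1.21 on the log2 scale (SE 0.41, adjusted p = 0.18), and Rbl2 and Rb1 had -0.90 (SE 0.31, adjusted p = 0.19) and -0.52 (SE 0.33, adjusted p = 0.503). Each of these 3 genes overlapped between groups.

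Of a list of 14 CDK inhibitors, D cyclins and quiescence genes, 13 were tested in edgeR. There 1 rose and 3 fell (30.8% in both directions, against 1.7% of all tested genes). The list was chosen with earlier results of these data known, so its shares are no test of it. DESeq2 called 4 higher and 3 lower, where 11.1% of all tested genes were called in both directions. Ccnd1, which encodes cyclin D1, rose from 33.7 to 38.9 CPM in naive to 56.4 to 115 CPM in tumour libraries (log2 fold change 1.30, SE 0.25, adjusted p = 0.0447 in edgeR). The antiproliferative gene Btg2 fell, from 270 to 473 CPM to 181 to 216 CPM (adjusted p = 0.0412 in edgeR; 0.0716 to 0.154 without naive replicate 1 or 2 or any 1 tumour replicate). The CDK inhibitor genes Cdkn1a and Cdkn1c also fell, from 678 to 759 and 54.4 to 61.2 CPM in naive to 187 to 386 and 21.4 to 32.2 CPM in tumour libraries (adjusted p = 0.0289 and 0.0300 in edgeR; past the threshold in 10 and 9 of 18 alternatives). Without naive replicate 1, 2 or 3 the adjusted p of Ccnd1, Cdkn1a and Cdkn1c was 0.0824 to 0.16. It was also above 0.05 for Ccnd1 and Cdkn1c without tumour replicate 2, 3 or 4 (0.0602 to 0.0936), and for Cdkn1a without tumour replicate 1 or 3 (0.0576 and 0.0668). The other CDK inhibitor genes did not share that direction throughout. Cdkn1b, Cdkn2b, Cdkn2c and Cdkn2d overlapped between groups, with log2 fold changes of -0.44 (SE 0.42), 2.98 (SE 1.46), 0.65 (SE 0.39) and 0.07 (SE 0.19). Cdkn2a had 0 counts in the 3 naive libraries and 8, 16, 7 and 95 counts in tumour replicates 1, 2, 3 and 4. It was too low for the edgeR filter, and DESeq2 called it higher.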
